A study of Mus musculus with 8 samples.

Results

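Voltage-gated calcium channels were described here by 10 subunit genes, chosen by symbol from the 37310 genes of a count table of mouse hippocampus: the L-type pores Cacna1c and Cacna1d (Cav1 class), the pores Cacna1a, Cacna1b and Cacna1e (Cav2 class), the T-type pores Cacna1g, Cacna1h and Cacna1i (Cav3 class), and the auxiliary alpha2delta subunits Cacna2d1 and Cacna2d3. All 10 were in the table and passed the filter on low counts, as did 17913 genes in all. The study set 4 mice heterozygous for a knockout of Nr2f1 (a transcription factor of the nuclear receptor family, active in forebrain patterning) against 4 wild-type (WT) mice. Mice of either genotype had no treatment by the labels, were aged 3 months and of the hybrid strain B6.129 F1, and their labels give the sex as male; the structure of the knockout allele is not given in the sources used here, and the libraries of a genotype are labelled biological replicates.

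These channels open when a neuron depolarises and let calcium in. A pore-forming alpha1 subunit sets the channel type. Cav1 (L-type) channels sit mainly on cell bodies and dendrites and couple activity to transcription. Cav2 channels (P/Q-, N- and R-type) serve transmitter release and dendritic calcium entry, and Cav3 (T-type) channels open near the resting potential and drive burst firing. The alpha2delta subunits bring Cav1 and Cav2 channels to the membrane and the presynaptic terminal, and beta subunits bind the intracellular face of the same pores.

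Libraries held 58717305 to 90043971 gene counts, and each of the 10 genes had between 3855 and 33575 counts in every library. Levels are given as CPM, read counts scaled to a common TMM-normalised library size. Nr2f1 lay between 28.49 and 33.52 CPM in heterozygotes and between 49.49 and 54.14 CPM in WT, a log2 fold change of -0.73 ± 0.0511 (SE; edgeR adjusted p = 7.32e-05), so it was lower in every library labelled heterozygous. Xist, which coats the silenced X chromosome of females, was at values between 463.2 and 547.5 CPM in heterozygotes and between 502.1 and 601.4 CPM in WT, and the 14 Y-linked genes had 3 counts in total, which goes against the label male in both groups. The ratio of spike-in ERCC-00130 to spike-in ERCC-00002 was 1.2 to 1.28 in odd-numbered libraries and 0.165 to 0.186 in even-numbered ones, in both genotypes. Different spike-in mixes were inferred from this ratio alone. In bulk tissue, fewer cells of a type and less RNA per cell cannot be told apart. Choroid plexus markers summed to 5606 to 6462 CPM in heterozygotes, but to 218.2, 2168, 749.3 and 2973 CPM in WT libraries 1 to 4. WT libraries 1 and 3 thus stood apart. Some results are also given without them, but not those of marker genes. They are also the odd-numbered WT libraries, so leaving them out sets even-numbered WT libraries against heterozygotes of both kinds. In those results, choroid plexus content and the odd or even number of a library cannot be told apart.

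The start regions of the alpha2delta genes and of Cacna1e are shown because these 3 genes had the largest differences between the genotypes among the 10. They are RefSeq windows of 250 bases before to 50 bases after a gene's start on GRCm38.p6, which is not the build of the counts, on chr5:15934441-15934740 (plus strand) for Cacna2d1, chr14:29721815-29722114 (minus strand) for Cacna2d3 and chr1:154725871-154726170 (minus strand) for Cacna1e. Capitals mark GGGCGG, the core of the GC box bound by Sp1, on either strand.
Cacna2d1: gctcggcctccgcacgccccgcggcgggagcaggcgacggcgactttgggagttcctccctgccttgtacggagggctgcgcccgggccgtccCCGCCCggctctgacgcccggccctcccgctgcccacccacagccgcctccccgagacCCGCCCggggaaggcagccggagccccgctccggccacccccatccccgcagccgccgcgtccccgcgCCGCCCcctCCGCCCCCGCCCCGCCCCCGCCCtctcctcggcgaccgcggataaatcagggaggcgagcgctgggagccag
Cacna2d3: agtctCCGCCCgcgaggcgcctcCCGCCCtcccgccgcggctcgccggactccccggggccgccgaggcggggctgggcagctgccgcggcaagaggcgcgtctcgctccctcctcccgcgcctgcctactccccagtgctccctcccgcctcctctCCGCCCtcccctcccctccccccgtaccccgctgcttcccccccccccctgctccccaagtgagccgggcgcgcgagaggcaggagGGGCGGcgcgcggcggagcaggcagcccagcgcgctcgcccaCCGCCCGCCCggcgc
Cacna1e: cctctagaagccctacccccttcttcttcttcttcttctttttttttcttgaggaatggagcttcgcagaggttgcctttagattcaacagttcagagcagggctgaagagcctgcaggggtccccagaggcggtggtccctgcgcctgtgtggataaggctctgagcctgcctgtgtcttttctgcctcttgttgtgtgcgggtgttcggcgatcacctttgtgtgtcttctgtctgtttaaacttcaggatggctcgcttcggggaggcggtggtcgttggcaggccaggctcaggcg
The Cacna2d1 window held 7 matches, some overlapping, and the Cacna2d3 window 6, against 0 in Cacna1e, where 35.7% of all 32851 windows held at least 1. G and C made up 80% and 81.3% of the Cacna2d1 and Cacna2d3 windows and 55.3% of the Cacna1e window. The median of all windows was 52.7%. In the Cacna1e window an ATG follows the annotated start almost at once, so that start may be where coding begins. Whether this window covers the promoter was not tested, and it may not be comparable with the alpha2delta windows. Neither AGGTCA, the half-site read by nuclear receptors of the Nr2f1 family, nor its reverse complement was in any of the 10 windows of the 7 members in that table, while 16.3% of all windows held it. With so few windows, 0 of 10 cannot be told from that share. Windows for Cacna1a, Cacna1g and Cacna1h were not used here.

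Members differed widely in level. Divided by the length of annotated exons, to make genes comparable, Cacna2d1 and Cacna1h were highest, at 17.6 ± 0.635 and 19.6 ± 1.84 CPM per kilobase in heterozygotes and 19.8 ± 1.22 and 19.7 ± 1.12 CPM per kilobase in WT (SD, n = 4 each). Cacna2d3, Cacna1b, Cacna1a and Cacna1e followed, with WT means between 15.6 and 16.7 CPM per kilobase and neighbouring means within 1 SD of each other. Below them came Cacna1i at 9.38 ± 0.284 in heterozygotes and 9.61 ± 0.440 CPM per kilobase in WT, Cacna1g at 8.41 ± 0.490 and 7.96 ± 0.177, Cacna1d at 5.20 ± 0.222 and 5.29 ± 0.262, and Cacna1c at 4.20 ± 0.225 and 4.25 ± 0.322, in the same order of groups and unit (SD, n = 4 each). In WT the ranges of these 4 did not overlap. The lowest 4 were the same genes when the longest transcript was used as the length; Cacna2d3 then ranked highest, at 36.2 ± 2.79 in heterozygotes and 39.5 ± 0.702 CPM per kilobase in WT (SD, n = 4 each), because its longest annotated transcript is 3695 bases where its exons cover 8720 bases. Exon lengths come from another build than the counts, so the order within each tier depends on the annotation.

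No member differed between genotypes past the threshold, an adjusted p of 0.05 in edgeR's quasi-likelihood test across all genes: 0 of 10 were called, where 2.99% of all 17913 genes tested were. The log2 fold change of heterozygotes over WT was below 0 for 9 of the 10, as for 52.1% of all genes, with a median of -0.052 over the members and -0.0056 over all genes. With an unadjusted edgeR p under 0.05 there were 4 members, Cacna2d1, Cacna2d3, Cacna1e and Cacna1a, each with a value below 0, where 7.11% of all genes had such a p with a value below 0. The DESeq2 Wald test called 1 member, Cacna2d1, which was lower, and 6.12% of the genes it tested, 1.38% as lower. With scaling to the spike-in RNAs, 3 of the 10 were below 0, the members' median was 0.043 and the median of all genes was 0.091. That scale is limited. Spike-ins made up 0.0431% to 0.0491% of counts in odd-numbered libraries and 0.0713% to 0.0787% in even-numbered ones. This step lies within each genotype, so scaling by spike-in totals adds spread between libraries of a genotype. The members' median relative to all genes was -0.047 with TMM and -0.048 with the spike-ins. A change of scale shifts all genes by nearly the same amount, so these values had to be close and are not separate support.

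**Figure D1:**
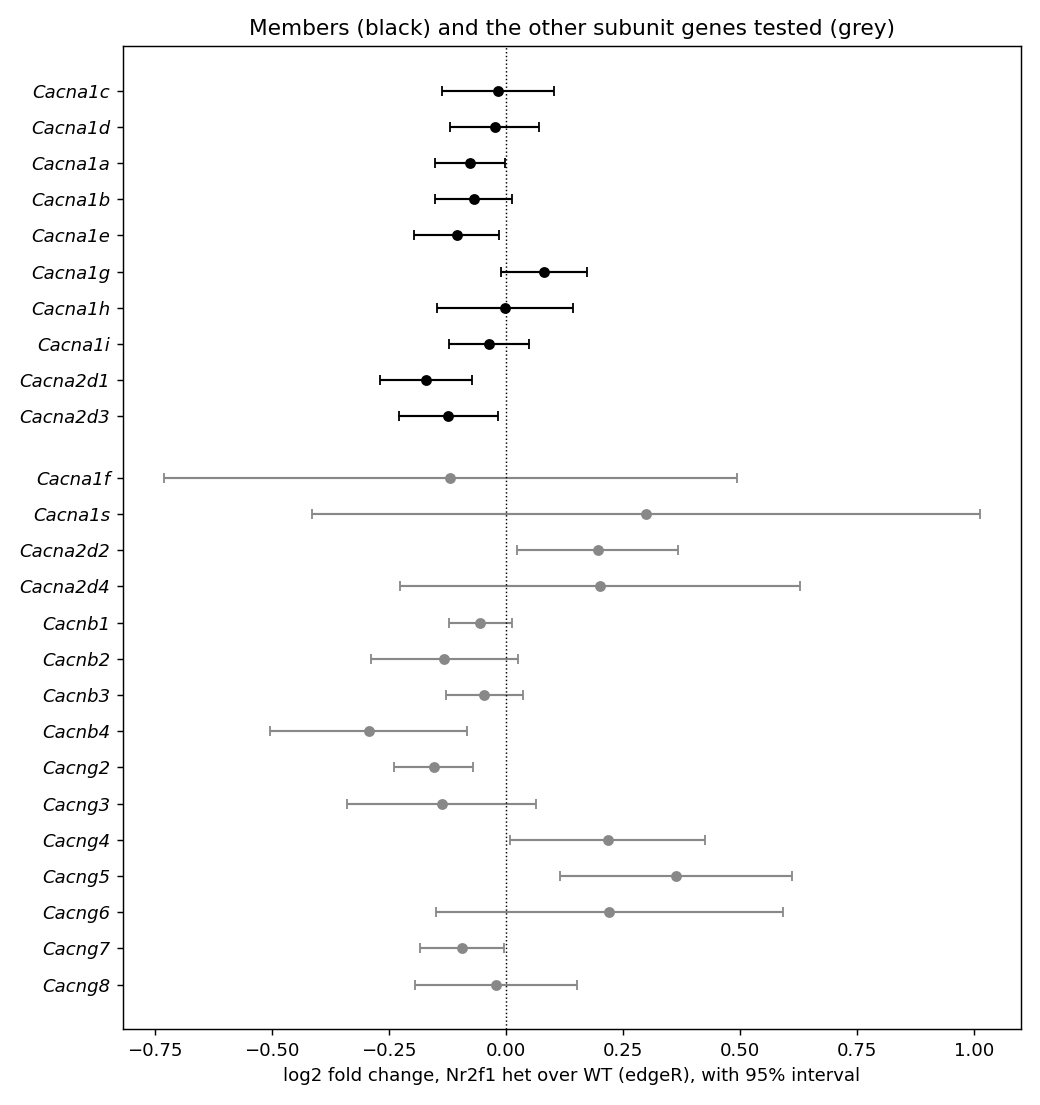
Log2 fold change of heterozygotes over WT with its 95% interval (bars, from the edgeR standard error) for the 10 members in black and the 15 other subunit genes tested in grey; the dotted line is no difference. Cacna2d1 lies lowest of the members at -0.17 and Cacna1g is the member above 0, at 0.081.

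Among the alpha2delta subunits, Cacna2d1 encodes alpha2delta-1, a binding site of the drug gabapentin. It was at 225.4, 214.0, 210.1 and 225.4 CPM in heterozygote libraries 1 to 4, against 262.1, 225.9, 251.4 and 245.7 CPM in WT libraries 1 to 4. The groups did not overlap, but heterozygote libraries 1 and 4 came close to WT library 2, which was well below the other WT libraries. Non-overlap with heterozygotes lower was seen for 3.59% of all genes and for 1 of the 10 members. The fold of heterozygotes over WT was 0.888, with a 95% interval of 0.830 to 0.950 (edgeR adjusted p = 0.0622). The adjusted p was 0.0142 in the DESeq2 Wald test, 0.0422 in edgeR with no filter on low counts (where 0.296% of all genes were called lower) and 0.0244 without WT library 2 (0.386% called lower), and 0.461 without WT libraries 1 and 3, where the fold was 0.925. Cacna2d3 encodes alpha2delta-3, a relative that does not bind gabapentin with high affinity. It was at 140.5, 131.9, 120.3 and 143.2 CPM in heterozygotes and 143.0, 145.1, 149.2 and 146.0 CPM in WT. Heterozygote libraries 1, 2 and 3 were below every WT library, and heterozygote library 4 was level with WT library 1. The fold was 0.918 (95% interval 0.853 to 0.988; edgeR adjusted p = 0.206), and 0.917 without WT libraries 1 and 3 (edgeR adjusted p = 0.542).

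**Figure D2:**
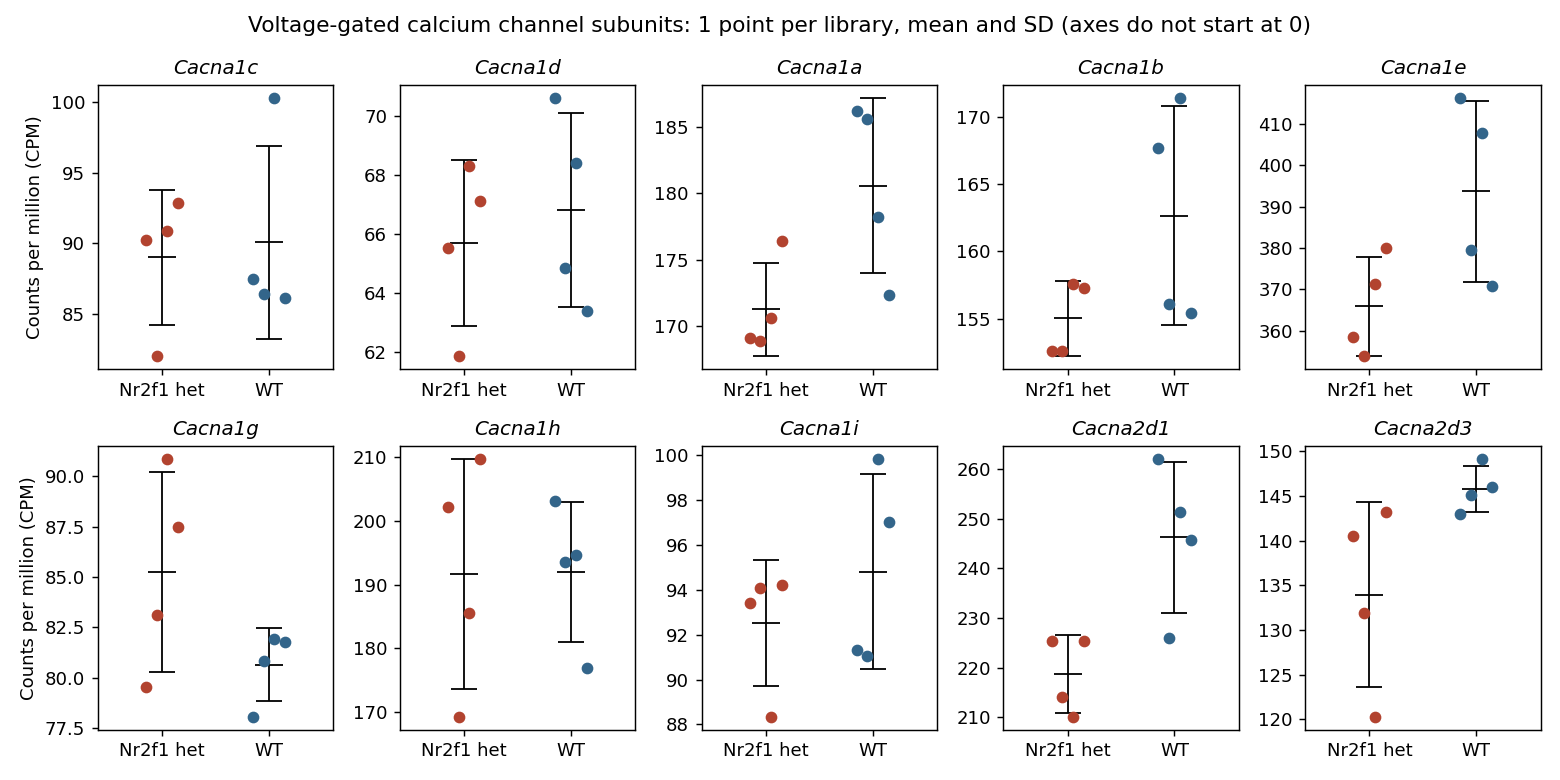
CPM of each subunit gene in every library (points, heterozygotes left, WT right), with the mean and SD of 4 libraries as black bars; the vertical axes differ and do not start at 0. Only for Cacna2d1 do the genotypes not overlap, with 210.1 to 225.4 CPM in heterozygotes and 225.9 to 262.1 CPM in WT.

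The 3 Cav2 pores each had a fold below 1. Cacna1e, the R-type pore, was at 358.4, 353.9, 371.4 and 380.0 CPM in heterozygotes, against 416.3, 379.6, 407.9 and 370.9 CPM in WT. WT libraries 1 and 3 were above all others, whereas WT libraries 2 and 4 lay inside the heterozygote range. The fold was 0.930 (95% interval 0.873 to 0.990; edgeR adjusted p = 0.215). Cacna1a, the P/Q-type pore that supports fast transmitter release, was at 169.1, 168.9, 170.6 and 176.4 CPM in heterozygotes, against 186.2, 185.6, 178.2 and 172.3 CPM in WT. Only WT library 4 fell within the heterozygote range. Its fold was 0.948 (95% interval 0.901 to 0.999; edgeR adjusted p = 0.275). Cacna1b, the N-type pore, was at 152.6, 152.6, 157.6 and 157.3 CPM in heterozygotes, against 167.7, 156.1, 171.4 and 155.4 CPM in WT, with a fold of 0.954 (95% interval 0.901 to 1.01; edgeR adjusted p = 0.392). As for Cacna1e, WT libraries 1 and 3 were the high ones. Without them the fold was 0.973 for Cacna1e, 0.993 for Cacna1b and 0.955 for Cacna1a (edgeR adjusted p = 0.806, 0.963 and 0.644). An antisense gene, Gm16183, shares 435 exonic bases with Cacna1a, and the library kit does not mark strand.

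Neither Cav1 pore passed the test, and the intervals of both folds included 1. Cacna1c, the main L-type pore of brain and heart, was at 90.24, 82.04, 90.90 and 92.85 CPM in heterozygotes, against 87.51, 86.43, 100.3 and 86.11 CPM in WT. Heterozygote library 2 was lowest and WT library 3 highest, and among the other 6 the 3 heterozygotes were above the 3 WT libraries, so the groups overlapped. Its fold was 0.988, and the 95% interval of 0.910 to 1.07 bounds any difference at this precision (edgeR adjusted p = 0.914). Cacna1d, an L-type pore that opens at less depolarised potentials, was at 65.50, 61.85, 68.29 and 67.09 CPM in heterozygotes, against 70.60, 64.83, 68.40 and 63.36 CPM in WT. The fold was 0.984 (95% interval 0.921 to 1.05; edgeR adjusted p = 0.840). Exons of Chdh on the opposite strand overlap 589 bases of Cacna1d exons, so some of its reads could belong to that gene.

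None of the 3 T-type pores passed the test, and the intervals of their folds included 1. Cacna1g, known for burst firing of thalamic relay neurons, was at 79.54, 83.11, 90.89 and 87.49 CPM in heterozygotes, against 78.05, 80.83, 81.93 and 81.77 CPM in WT. Heterozygote libraries 2, 3 and 4 were above every WT library. The fold was 1.06 (95% interval 0.993 to 1.13; edgeR adjusted p = 0.353). Cacna1h varied most between heterozygotes, with a coefficient of variation of 9.39% there and 5.69% in WT: it was at 202.2, 169.3, 185.6 and 209.7 CPM in heterozygotes, against 203.1, 193.5, 194.6 and 176.9 CPM in WT. The heterozygote values enclosed the WT values, and the fold was 0.998 (95% interval 0.903 to 1.10; edgeR adjusted p = 0.990). Tpsg1, on the opposite strand, shares 158 exonic bases with it. Cacna1i, the T-type pore typical of the thalamic reticular nucleus, was at 93.39, 94.08, 88.34 and 94.22 CPM in heterozygotes, against 91.30, 91.07, 99.85 and 97.01 CPM in WT (fold 0.976, 95% interval 0.920 to 1.03; edgeR adjusted p = 0.698).

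Libraries of 1 genotype differed from each other about as much as the genotypes did. The median deviation of the 10 members from their WT means, in log2 CPM, was -0.041, -0.12, -0.064 and -0.017 in heterozygote libraries 1 to 4, and 0.045, -0.046, 0.034 and -0.063 in WT libraries 1 to 4. WT libraries 2 and 4 thus lay inside the heterozygote range, and WT libraries 1 and 3 above it. Among the odd-numbered libraries 9 of 10 members had a log2 fold change below 0, with a median of -0.079 (all genes 0.0045). Among the even-numbered ones 5 of 10 did, with a median of -0.0031 (all genes -0.0037). Cacna2d1 had a fold of 0.853 in the odd-numbered libraries (edgeR adjusted p = 0.082) and 0.932 in the even-numbered ones (edgeR adjusted p = 0.702); whether these 2 folds differ was not tested. Cacna1e had 0.891 and 0.978 in that order. Without WT libraries 1 and 3, the odd-numbered WT libraries, 6 of 10 were below 0 and the median was -0.019. Cacna1c, Cacna1d and Cacna1h then had folds of 1.03, 1.02 and 1.03. These results share libraries with the odd and even split, so they are not a separate check.

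**Figure D3:**
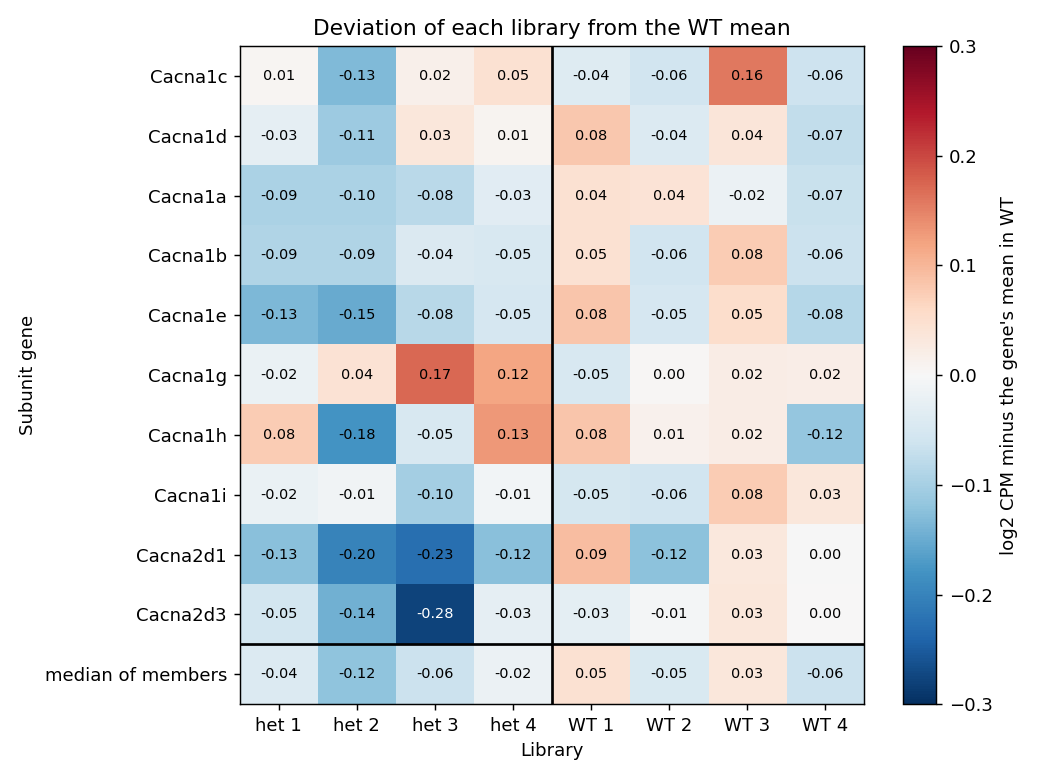
Log2 CPM of each member in each library minus that gene's mean in WT (colour and printed value), with heterozygote libraries left of the black line and WT libraries right of it; the bottom row is the median over the 10 genes. That median is -0.12 in heterozygote library 2, and 0.045 and 0.034 in WT libraries 1 and 3.

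Shares of the pores within a library do not depend on how libraries are scaled. Of the CPM per kilobase summed over the 8 pores, the Cav2 genes took 48.31%, 50.18%, 49.39% and 48.41% in heterozygote libraries 1 to 4, against 51.13%, 50.40%, 50.37% and 50.17% in WT libraries 1 to 4. Heterozygotes were lower apart from library 2, which was level with WT library 4. The Cav3 share was 41.40%, 39.85%, 40.08% and 41.45% in heterozygotes, against 38.86%, 39.71%, 39.20% and 39.79% in WT. Here every heterozygote library lay above every WT library, though only narrowly for heterozygote library 2 against WT library 4. Shares of a whole depend on each other, so the higher Cav3 and lower Cav2 shares are not separate results. The Cav1 share ran from 9.97% to 10.53% in heterozygotes and from 9.88% to 10.43% in WT. These shares are descriptions of the members and were not tested. The direction of the means was the same with the longest transcript as the length and with no division by length, although the shares themselves moved by several percentage points. Of single genes, Cacna1g took 9.15% ± 0.499 in heterozygotes and 8.42% ± 0.415 in WT, and Cacna1e 15.8% ± 0.232 and 16.5% ± 0.386 (SD, n = 4 each). The summed alpha2delta level was 33.33% to 37.30% of the summed pore level in heterozygotes, against 37.36% to 40.36% in WT; with the longest transcripts the ranges were 51.09% to 57.77% in heterozygotes and 57.74% to 62.11% in WT, and with no division by length 27.00% to 30.21% and 29.97% to 32.54%, so both overlapped.

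**Figure D4:**
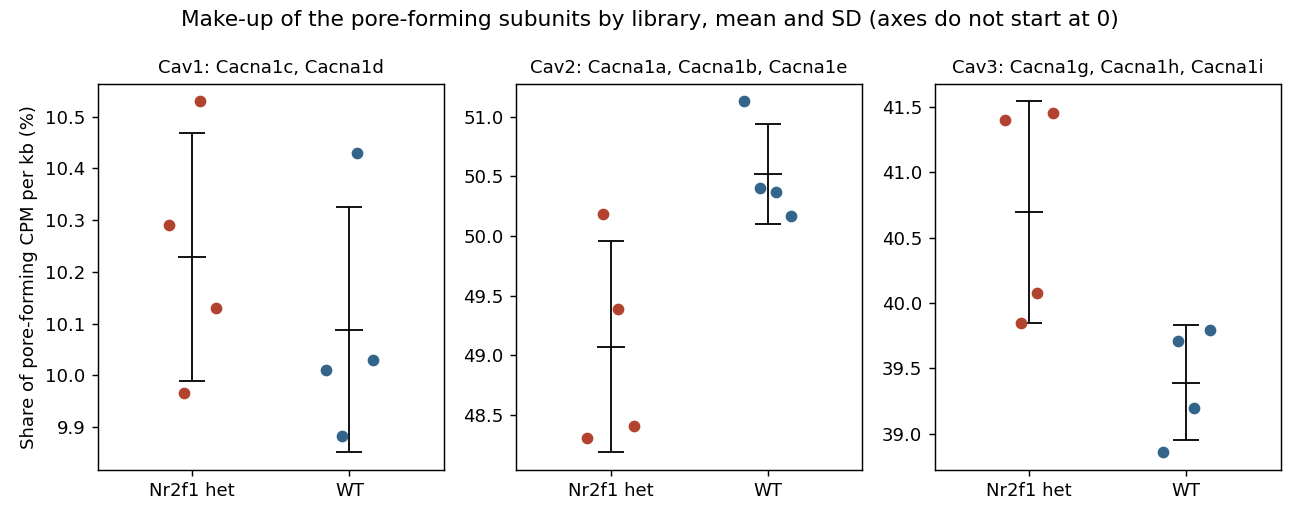
Share of each Cav class in the CPM per kilobase summed over the 8 pore-forming genes, by library (points, heterozygotes left, WT right), with mean and SD; axes do not start at 0. Cav3 lies between 39.85% and 41.45% in heterozygotes and between 38.86% and 39.79% in WT.

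Markers of some cell types differed between the genotypes as well. Of all genes tested, 0.368% fell and 2.62% rose past the threshold. Summed marker levels overlapped between the genotypes for the neocortex, CA3 and CA2, dentate granule, interneuron and oligodendrocyte lists. They also overlapped for the oligodendrocyte precursor, microglia, endothelial and mural lists. Single genes of these lists were called even so. Foxp2 (neocortex) and Map3k15 (CA3 and CA2) rose to 1.79- and 1.89-fold (edgeR adjusted p = 0.0288 and 0.00383). Dlx2 (interneuron) and Acta2 (mural) rose to 1.37- and 1.46-fold (edgeR adjusted p = 0.0153 and 0.0241). Prss35 (CA3 and CA2) and Tdo2 (dentate granule) fell to 0.719 and 0.659 of WT (edgeR adjusted p = 0.0286 and 0.0252). CA3 and CA2 markers summed to 396.7 to 451.5 CPM in heterozygotes and 396.8 to 433.8 CPM in WT. Of 12 interneuron markers, 5 had an unadjusted edgeR p under 0.05 with a value above 0, where 10.0% of all genes did. Of 10 pan-neuronal markers, 2 fell, the splicing factor gene Rbfox3 at 0.912 of WT (edgeR adjusted p = 0.0396) and the synaptic fusion gene Snap25 at 0.873 (edgeR adjusted p = 0.0419); the list's median log2 fold change was -0.11. The list summed to 7507 to 7948 CPM in heterozygotes and 8156 to 8701 CPM in WT, with no marker at 0 in any library. Set against that sum, Cacna2d1 was at 27.0 to 28.5 CPM per 1000 pan-neuronal CPM in heterozygotes and 27.7 to 30.9 in WT, and Cacna1e at 44.7 to 49.5 in heterozygotes and 44.3 to 49.0 in WT, so both overlapped. Cacna1g was at 10.1 to 12.1 per 1000 in heterozygotes and 9.19 to 9.91 in WT, and Cacna1i at 11.8 to 11.9 in heterozygotes and 10.7 to 11.6 in WT, without overlap. On this scale 2 of the 10 members were higher in every heterozygote library, as were 21.0% of all genes, the divisor being lower in each heterozygote library. Of 5 CA1 pyramidal markers tested, 2 fell, Wfs1 at 0.846 and Mpped1 at 0.877 of WT (edgeR adjusted p = 0.0362 and 0.0409); the list summed to 782.5 to 866.8 CPM in heterozygotes and 932.2 to 960.9 CPM in WT, and its member Pou3f1 had no count in any library.

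Of 9 thalamic markers tested, 3 rose, among them Zic4 at 2.38-fold and Prkcd at 1.38-fold (edgeR adjusted p = 0.0149 and 0.0292). Their sum was 222.9, 257.4, 280.4 and 229.1 CPM in heterozygotes, against 177.2, 210.7, 188.6 and 209.2 CPM in WT. Heterozygote library 3 was highest in this sum, as it was in Cacna1g. Heterozygote library 2 was next in the sum, and heterozygote library 4 in Cacna1g. Cacna1i went the other way, lowest in heterozygote library 3 at 88.34 CPM. Within WT, libraries 1 and 3 were lowest in the thalamic sum, as in the choroid plexus sum. Zic4 had the same pattern, at 1.79, 3.79, 2.03 and 3.26 CPM in WT libraries 1 to 4. Striatal markers summed to 218.4 to 334.9 CPM in heterozygotes and 203.5 to 217.8 CPM in WT, without overlap. Of these 10, 1 was called, as higher. All 10 had a log2 fold change above 0, as did 8573 of all 17913 genes, and their median was 0.74. Meningeal fibroblast markers summed to 329.8 to 393.7 CPM in heterozygotes and 98.8 to 248.5 CPM in WT. Of these 9, 0 were called and all 9 had a log2 fold change above 0. Choroid plexus markers (12, none at 0) had a median log2 fold change of 1.81 with 0 called, and 11 had an unadjusted edgeR p under 0.05 with a value above 0, as 10.0% of all genes did; of 6 ependymal markers 4 rose. None of the 10 astrocyte markers was called; the median log2 fold change of the 10 was -0.018, 4 were above 0, and of the 4 markers with an unadjusted edgeR p under 0.05, 2 were higher and 2 lower. Their sum was 4765 to 5062 CPM in heterozygotes and 5119 to 5405 CPM in WT. The part of these markers in the differences of the calcium channel genes was not tested.

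**Figure D5:**
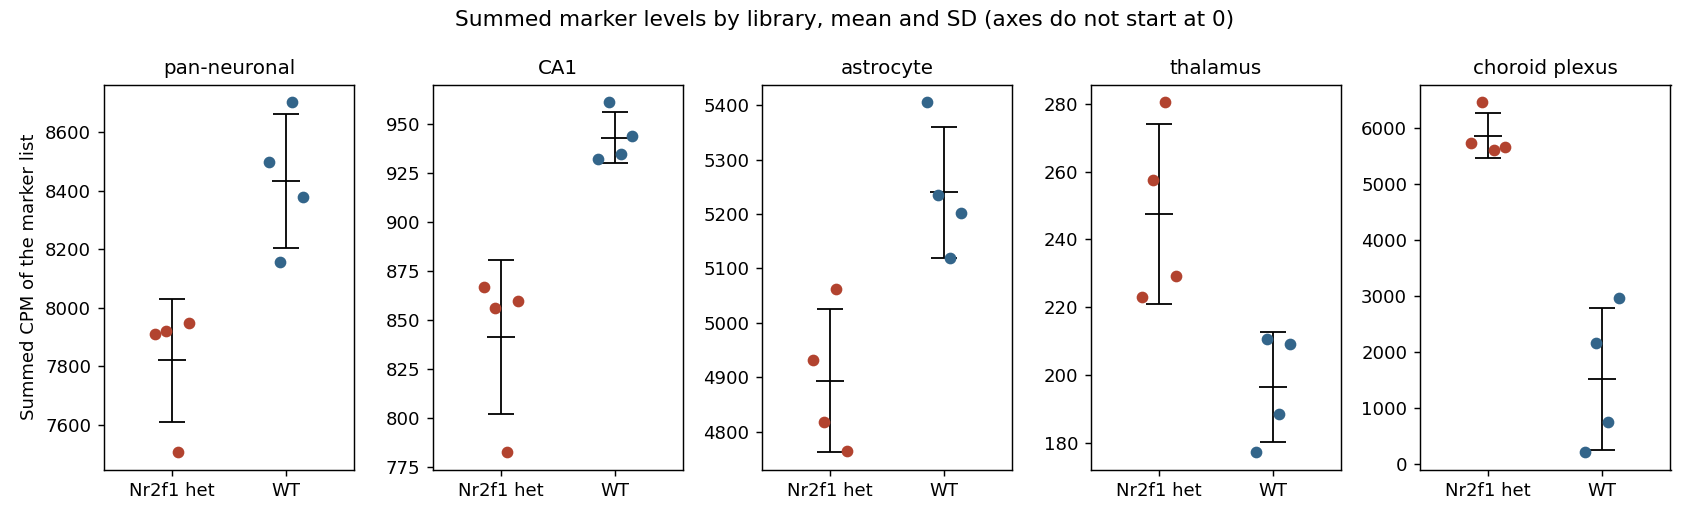
Summed CPM of 5 marker lists by library (points, heterozygotes left, WT right), with mean and SD; axes differ and, choroid plexus apart, lie far above 0. Pan-neuronal, CA1 and astrocyte sums are lower in every heterozygote library than in any WT library, and thalamic and choroid plexus sums are higher. Lists whose sums overlapped between the genotypes are not drawn. The striatum, ependyma and meningeal fibroblast lists are not drawn either, and their sums were higher in every heterozygote library than in any WT library.

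The other subunit genes gave no call in edgeR with all libraries, while the DESeq2 Wald test called 3, Cacnb4, Cacng2 and Cacng5, where it called 6.12% of the genes it tested. Of 16, Cacng1 had 11 counts in all and did not pass the filter, and 0 of 15 tested in edgeR were called, with a median log2 fold change of -0.046. The skeletal muscle pore Cacna1s and the retinal pore Cacna1f had 13 to 60 counts per library, at 0.405 ± 0.128 and 0.450 ± 0.138 CPM in heterozygotes and 0.330 ± 0.140 and 0.499 ± 0.145 CPM in WT (SD, n = 4 each); a count of 0 allows up to 3 counts, or 0.0333 to 0.0511 CPM by library. Among the beta subunits, which traffic and gate Cav1 and Cav2 pores, Cacnb4 was at 99.40, 117.8, 89.29 and 100.6 CPM in heterozygotes, against 120.3, 115.2, 121.0 and 142.4 CPM in WT. Heterozygote library 2 was above WT library 2, and the fold was 0.816 (edgeR adjusted p = 0.138; 0.0132 in the DESeq2 Wald test, and in edgeR 0.0357 without heterozygote library 2 and 0.0238 among odd-numbered libraries). Exons of Cacnb4 share 1433 bases with A430018G15Rik on the opposite strand. Cacnb1, Cacnb2 and Cacnb3 had folds of 0.963, 0.913 and 0.969.

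Cacna2d2, a gabapentin-binding alpha2delta found mainly in cerebellum and interneurons, had a value opposite to the alpha2delta members, at 33.05, 37.13, 41.21 and 39.78 CPM in heterozygotes and 33.32, 33.43, 29.09 and 36.37 CPM in WT. The groups overlapped, and the fold was 1.15 (edgeR adjusted p = 0.222). Cacna2d4, a retinal form, was at 1.55 ± 0.297 CPM in heterozygotes and 1.35 ± 0.333 CPM in WT (SD, n = 4 each; edgeR adjusted p = 0.657). Of the gamma genes, several of which encode AMPA receptor auxiliary subunits (TARPs) rather than calcium channel subunits in brain, Cacng2 (stargazin) was at 65.15, 62.71, 58.92 and 61.77 CPM in heterozygotes, against 67.81, 68.48, 72.31 and 67.89 CPM in WT. Every heterozygote library was lower, and the fold was 0.898 (edgeR adjusted p = 0.0534, and 0.0141 in the DESeq2 Wald test). Non-overlap with heterozygotes lower was seen for 2 of the 15 other subunit genes tested, Cacng2 and, narrowly, Cacnb1. It was seen for 3.59% of all genes. Cacng5, which is enriched in CA2, had 20.5 ± 2.67 CPM in heterozygotes and 15.98 ± 2.10 CPM in WT (SD, n = 4 each; edgeR adjusted p = 0.118; 0.0168 in the DESeq2 Wald test). Cacng3, Cacng7 and Cacng8 had folds of 0.909, 0.937 and 0.986, and Cacng4 and Cacng6 of 1.16 and 1.17 (edgeR adjusted p between 0.268 and 0.928 for the 5).

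Among 91 tested genes of the wider calcium pathway, the 15 subunit genes included, edgeR called 1, as higher, where 2.99% of all genes were called and 2.62% as higher. The DESeq2 Wald test called 8 pathway genes, where it called 6.12% of the genes it tested. These included Ppp3r1, Akap5 and Kcnn4 (DESeq2 Wald adjusted p = 0.0121, 0.0356 and 0.0466). Counts of called genes by list are those of edgeR. Atp2a3, which encodes a SERCA pump that returns calcium to the endoplasmic reticulum, rose to 7.64 ± 0.902 CPM in heterozygotes, against 5.08 ± 0.518 CPM in WT (SD, n = 4 each; fold 1.51, edgeR adjusted p = 0.0108). Its values were 7.26, 7.39, 8.96 and 6.94 CPM in heterozygotes and 4.49, 5.17, 4.91 and 5.73 CPM in WT, with no overlap. Non-overlap with heterozygotes higher was seen for 1252 of all 17913 genes tested. The call of Atp2a3 was lost among even-numbered libraries (log2 fold change 0.39, edgeR adjusted p = 0.283). It was also lost without WT libraries 1 and 3 (log2 0.49, edgeR adjusted p = 0.113). The other 28 genes of calcium stores and extrusion were not called, and that list's median was -0.0011. Of 18 channel partners 0 were called (median -0.070); lowest p there belonged to Akap5, a scaffold that anchors kinase and phosphatase to L-type channels, at 0.915 of WT (edgeR adjusted p = 0.0868), and Gem, a small GTPase that inhibits these channels, at 1.24-fold (edgeR adjusted p = 0.147). Of 21 calcium sensors and their targets 0 were called (median -0.064); Ppp3r1, the calcineurin regulatory subunit, was at 0.844 and the kinase gene Camkk1 at 0.911 of WT (edgeR adjusted p = 0.102 and 0.130). Of 8 calcium-activated potassium channel genes 0 were called (median -0.071); Kcnn4, with 4 to 22 counts per library, was at 0.226 ± 0.0523 CPM in heterozygotes and 0.0780 ± 0.0276 CPM in WT (SD, n = 4 each; edgeR adjusted p = 0.0557), and Kcnn1 was at 0.894 of WT (edgeR adjusted p = 0.120).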

How the data were processed

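Hippocampal RNA of 4 Nr2f1 heterozygotes and 4 WT mice was measured by RNA-seq. The authors deposited raw read counts per Ensembl gene, 1 column per library. The submitters' processing notes name the builds NCBIM37 and mm9 and the tools STAR 2.4.2a, HTSeq, FastQC and DESeq2; what each did, the gene annotation and whether counting used strand were not given in the sources used here. Per the labels' protocols, double-stranded cDNA was made with a NuGEN Ovation kit, by poly(A) selection and random priming; that kit does not mark strand.

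The 92 spike-in rows (0.0431% to 0.0787% of counts) entered neither the library sizes nor any test. Symbols matched 32620 of 37310 identifiers. Counts were TMM-normalised, filtered with filterByExpr (minimum count 10, total 15) and tested in edgeR 4.0.16 (R 4.3.3) by its robust two-sided quasi-likelihood F test, with Benjamini-Hochberg adjustment over all 17913 genes and a threshold of 0.05. The SE of a log2 fold change is its size over the square root of F; 95% intervals use the test's degrees of freedom. The edgeR step was tested on simulated data. Exon lengths and overlaps came from GENCODE M21 on GRCm38. Alternatives were the DESeq2 1.42.0 Wald test, its size factors, spike-in scaling, no filter, 1 CPM in 4 libraries, a block for the replicate number, leaving out each library, odd- or even-numbered libraries alone, and WT libraries 1 and 3 left out.

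All 10 members, Nr2f1 and the tested genes of the subunit list are named; from each other pathway list, genes past the threshold or else the 2 with the lowest p; from marker lists, up to 2 past it. Members and lists were chosen with earlier results of these data known. Within a genotype every pair of libraries differed beyond sampling noise (chi-square per degree of freedom 7.42 to 25), so none was counted as a duplicate. Intervals and limits of detection cover counting error or the spread between these samples only, since no molecular identifiers separate PCR copies from molecules.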

Additional observations from a re-analysis of the deposited data

Results flagged for a closer look

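The values here are single libraries whose gap to the next library of their genotype took up most of the range of 4 (past Dixon's 95% critical value, which chance passes in about 1 of 20 groups); 7 of 80 groups looked at did. Cacna1c was at 100.3 CPM in WT library 3, against 86.11 to 87.51 CPM in the other WT libraries. Cacna1i was at 88.34 CPM in heterozygote library 3, against 93.39 to 94.22 CPM in the other heterozygotes. Cacng2 was at 72.31 CPM in WT library 3, where the other WT libraries had 67.81 to 68.48 CPM, and Cacng8 was at 62.15 CPM in WT library 4, where the others had 70.75 to 71.85 CPM. The pan-neuronal sum was 7507 CPM in heterozygote library 3, against 7910 to 7948 CPM in the other heterozygotes, and the CA1 sum was lowest in that library too, at 782.5 CPM against 856.1 to 866.8 CPM. The choroid plexus sum was 6462 CPM in heterozygote library 2, against 5606 to 5740 CPM in the other heterozygotes.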

How the results depend on the processing

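The number of members called was 0 in edgeR with the low-count filter and all libraries, and 1 (Cacna2d1) in edgeR with no low-count filter, in the DESeq2 Wald test and in edgeR without WT library 2, a range of 0 to 1 over the libraries left out. All genes called numbered 185 with spike-in scaling, 1183 with the DESeq2 Wald test, 78 among even-numbered libraries and 170 without WT libraries 1 and 3, and ran from 171 (without WT library 3) to 767 (without WT library 4) over the libraries left out, against 535. It was 222 without WT library 1, and 321, 315 and 281 without heterozygote library 1, 3 or 4. Calcium pathway genes called numbered 0 with spike-in scaling, 8 with the DESeq2 Wald test, 2 among odd-numbered libraries, 0 among even-numbered ones and 0 without WT libraries 1 and 3, and 1 to 2 with each library left out, against 1. The members' median was 0.043 with spike-in scaling and -0.064 to -0.029 with each library left out.

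Directions turned for the genes here, none of which was called. With spike-in scaling the log2 fold change was 0.080 for Cacna1c, 0.077 for Cacna1d, 0.020 for Cacna1a, 0.029 for Cacna1b, 0.089 for Cacna1h, 0.056 for Cacna1i, 0.038 for Cacnb1, 0.052 for Cacnb3, 0.0085 for Cacng7 and 0.066 for Cacng8. Nr2f1, at -0.64 on that scale, and Atp2a3, at 0.69, lost their calls (edgeR adjusted p = 0.897 and 0.543). Spike-in shares of counts differed between odd- and even-numbered libraries in both genotypes, and the cause of the lost calls was not tested. Among even-numbered libraries the log2 fold change was 0.019 for Cacna1c, 0.0080 for Cacna1d, 0.033 for Cacna1h, 0.0012 for Cacna1i, 0.10 for Cacna1f, -0.020 for Cacna2d4 and 0.027 for Cacng8. Without WT libraries 1 and 3 it was 0.041 for Cacna1c, 0.032 for Cacna1d, 0.046 for Cacna1h, -0.034 for Cacna1s, -0.036 for Cacna2d4 and 0.029 for Cacng8. With each library left out it ran from -0.040 to 0.036 for Cacna1c, -0.043 to 0.0051 for Cacna1d, -0.051 to 0.053 for Cacna1h, -0.24 to 0.077 for Cacna1f and -0.066 to 0.025 for Cacng8.

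Pore shares moved with the length used. With the longest transcript, Cav1, Cav2 and Cav3 took 11.44%, 52.37% and 36.19% in heterozygotes and 11.25%, 53.86% and 34.89% in WT. With no division by length they took 12.71%, 56.92% and 30.36% in heterozygotes and 12.44%, 58.42% and 29.15% in WT. Left-out libraries gave heterozygote means of 10.13% to 10.32%, 48.71% to 49.33% and 40.45% to 40.98% in the same order, and WT means of 9.975% to 10.16%, 50.32% to 50.64% and 39.26% to 39.57%.

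Libraries that share a replicate number did not deviate together (correlations of deviations from the genotype means were 0.0269, -0.0449, -0.0932 and -0.0780 for numbers 1 to 4). With the replicate number as a block 0 members and 406 of all genes were called, and Cacna2d1 had an adjusted p of 0.078.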
